A study of Rattus norvegicus with 4 samples.

Results

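The genes described here are hepcidin (Hamp) and 9 genes through which iron is sensed and hepcidin is set: Bmp6, Hfe2, Neo1, Hfe, Tfr2, Smad6, Smad7, Tmprss6 and Id1. Every array probe carrying one of these names, or the older names Trfr2 for Tfr2 and Hjv for Hfe2, was taken. This gave 12 probes for the 10 genes, of 30367 gene probes on the array and of 19287 genes named by the deposited tables. Hfe and Neo1 had 2 probes each and the other genes 1.

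Weanling male Sprague-Dawley rats ate a purified diet low in iron (FeD), adequate in iron (FeA) or loaded with iron (FeO) for 3 weeks, with 5, 35 and 20275 ppm iron according to the sample labels. All 3 diets shared the same base, with extra sucrose. Pancreas RNA of 6 rats was combined into 1 pool per diet. Each of the FeD and FeO pools was hybridised beside FeA on a pair of two-colour arrays, with the Cy3 and Cy5 dyes exchanged on array 2. The 4 arrays came from 1 slide and 1 scan, and the 2 arrays of a comparison held the same RNA, so they count as 1 replicate and their difference is technical. Variation among rats was not measured and no diet effect could be tested. Where a mean is given with ±, the second value is the SD of the 2 arrays.

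Hepcidin is the peptide hormone that binds the iron exporter ferroportin and causes its degradation, which lowers the release of iron into plasma. It is made mainly by hepatocytes. When iron is high, BMP6 binds BMP receptors together with the co-receptor hemojuvelin (Hfe2), the receptor-regulated SMAD proteins are phosphorylated, and hepcidin is transcribed along with the BMP targets Id1, Smad6 and Smad7. HFE and transferrin receptor 2 report transferrin saturation to this pathway, and the protease matriptase-2 (Tmprss6) dampens it by cleaving hemojuvelin. Outside the liver, hepcidin has been described in pancreatic islets among other tissues, and BMP6, SMAD7 and ID1 act in many cell types.

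Part of the BMP input to hepcidin arrives close to the gene start, while other BMP elements, among them those of Id1, lie further upstream and outside the windows read here. RefSeq promoters of build GRCr8, 250 bases before to 50 after the gene start, were held for 7 of the 10 genes. They were searched on both strands for GGCGCC, the core of BMP-responsive elements, for TTCTTGGAA, the STAT site known from the hepcidin promoter, and for GTCTAGAC, the palindromic SMAD site, and no matches overlapped. The promoters of 3 genes are shown, chosen in part by the ratios below: Hamp is the hormone, Id1 had the highest ratio, and Smad7 lay on opposite sides of FeA in the 2 diets. None of the ratios was joined to the sequences. Capitals mark GGCGCC or TTCTTGGAA. Hamp lies at chr1:95300222-95300521 on the minus strand, Id1 at chr3:161671314-161671613 on the plus strand and Smad7 at chr18:71263258-71263557 on the plus strand.
Hamp: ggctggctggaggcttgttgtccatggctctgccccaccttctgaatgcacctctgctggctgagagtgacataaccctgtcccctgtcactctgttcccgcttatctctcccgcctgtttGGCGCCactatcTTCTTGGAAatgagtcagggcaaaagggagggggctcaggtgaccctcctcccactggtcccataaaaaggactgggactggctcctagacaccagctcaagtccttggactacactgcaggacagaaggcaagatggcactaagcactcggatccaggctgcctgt
Id1: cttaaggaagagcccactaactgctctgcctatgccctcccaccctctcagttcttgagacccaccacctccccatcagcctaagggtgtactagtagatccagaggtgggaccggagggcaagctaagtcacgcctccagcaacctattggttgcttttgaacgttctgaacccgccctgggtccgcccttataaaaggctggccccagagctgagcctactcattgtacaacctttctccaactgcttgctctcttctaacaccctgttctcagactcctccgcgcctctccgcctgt
Smad7: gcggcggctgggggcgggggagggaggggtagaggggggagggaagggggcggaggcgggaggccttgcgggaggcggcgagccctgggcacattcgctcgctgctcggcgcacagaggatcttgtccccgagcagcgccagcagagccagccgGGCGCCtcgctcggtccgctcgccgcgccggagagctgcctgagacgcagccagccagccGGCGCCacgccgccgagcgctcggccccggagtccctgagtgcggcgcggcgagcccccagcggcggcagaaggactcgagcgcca

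In the Hamp promoter, GGCGCC began 129 bases and TTCTTGGAA 117 bases before the gene start. The Smad7 promoter held GGCGCC at 96 and at 36 bases before the start, and the Neo1 promoter at 24 bases. None of the motifs was in the window of Id1, Bmp6, Hfe2 or Tfr2. GGCGCC was found in 3 of the 7 promoters, and in 11.0% of the 33469 promoters in the table. The base composition of the windows was not taken into account, and those of Smad7 and Neo1 are rich in G and C. TTCTTGGAA was in 0.526% of all promoters and GTCTAGAC in 0.197%, the latter in none of the 7. A match describes letters in a window and is not a measured binding site.

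Transcripts of 9 of the 10 genes were above background in the pancreas pools, and none of them differed strongly between diets. Id1 in FeO was the highest, at 1.39-fold, and hepcidin stayed within 1.16-fold of FeA in both diets. Ratios are log2 of the diet over FeA within an array. Probes were counted where the scanner software called them well above background on both arrays for the diet or for FeA. The study's size cutoff, a log2 ratio of 2 or more in size, was used here with the added condition of the same sign on both arrays and without the study's P cutoff. It was met by 0 of the 9 genes in FeD and by 0 in FeO. Over all probes that passed the filter it was met by 0.114% of 17513 in FeD and 0.191% of 18315 in FeO. A log2 ratio of 1 was also reached by 0 of the 9 genes in each diet, against 0.365% and 1.11% of all probes. Even at 0.5 the count was 0 and 0, against 2.74% and 5.41% of all probes. The counts at 1 and 0.5 were taken at this offset only. Id1 in FeO read 0.75 with no offset and 0.90 from the scanner software's processed signals, both above 0.5. Hamp in FeD read 0.58 from the processed signals.

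The median log2 ratio of the 9 passing probes was 0.11 in FeD and 0.06 in FeO, beside 0.01 and 0.01 for all probes. In FeD their ratios ran from -0.09 (Bmp6) to 0.25 (Smad7), and all 9 lay inside the 5th to 95th percentile of all probes, -0.24 to 0.32. In FeO they ran from -0.10 (Smad7) to 0.48 (Id1), and 8 of 9 lay inside the range of -0.33 to 0.42, with Id1 above it. Arrays of the same RNA differed by a median of 0.22 in FeD and 0.23 in FeO over all probes, which is as large as most of the ratios below. Of all probes that passed, 46.4% had the same sign on both arrays in FeD and 51.9% in FeO.

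**Figure D1:**
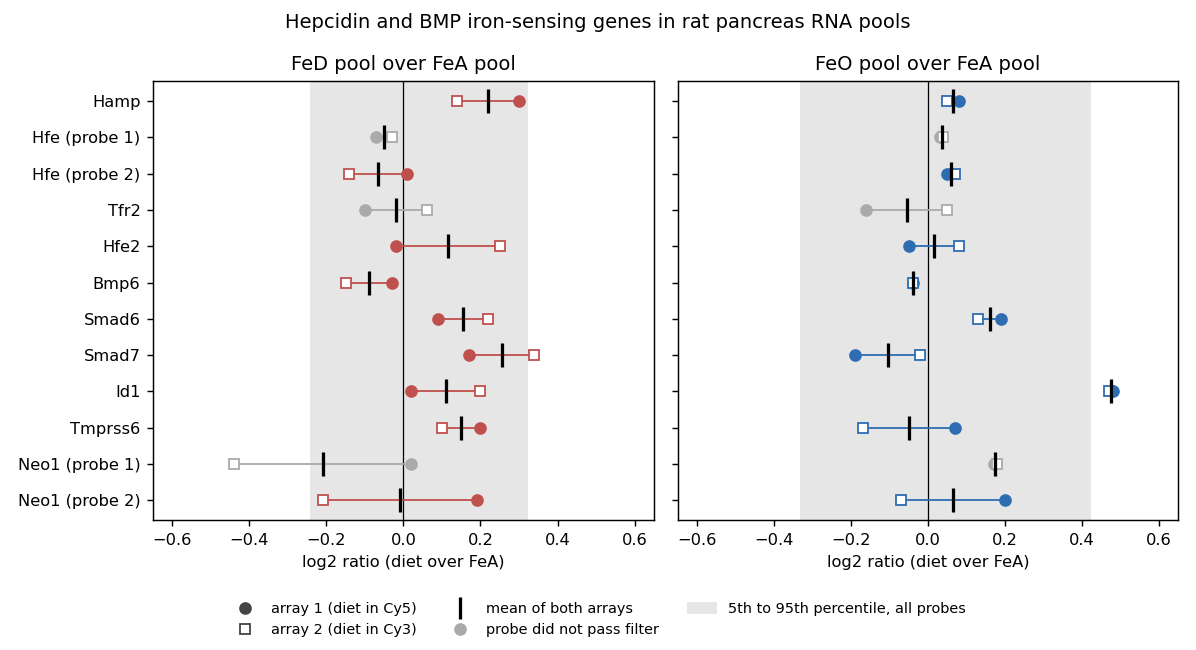
Log2 ratio of the diet pool over the FeA pool (x axis) for each of the 12 probes (y axis), FeD on the left and FeO on the right. Circles are array 1, squares array 2, black ticks their mean, grey marks are probes that did not pass the filter, and the shaded band is the 5th to 95th percentile of all probes. Only Id1 in FeO, at 0.48, lies outside the band among the probes that passed.

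Hepcidin itself was measured by 10 spots on each array. In FeD the Hamp log2 ratio was 0.30 on array 1 and 0.14 on array 2, a mean of 0.22 ± 0.11, or 16.1% above FeA. In FeO it was 0.08 and 0.05, a mean of 0.06 ± 0.02, or 4.47% above FeA. Both diets were thus slightly above FeA on every array, FeD by more. The 8 usable spots ranged from 0.15 to 0.53 on FeD array 1 and the 8 on array 2 from 0.00 to 0.29, all on the higher side. In FeO, 8 of the 10 spots were above 0 on each array.

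The hepcidin signal was low but above background in all pools. The median spot signal was 209 over a local background of 83 in FeD (Cy5), and 95.75 over 56.25 in FeA (Cy3), on array 1. With the dyes exchanged it was 105.5 over 56.25 in FeD and 157.5 over 84.5 in FeA. On the FeO arrays it was 161 over 80.75 (Cy5) and 102 over 50 (Cy3) in FeO, against 94 over 53.25 and 151.75 over 80 in FeA. The size of the ratio moved with the background correction: the FeD ratio was 0.39 with no offset added to the corrected signals and 0.58 from the scanner software's processed signals.

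Markers of acinar, islet, hepatocyte and macrophage cells were read beside hepcidin. Acinar markers were above background in all pools for 7 of 7 genes on the array, and so were islet markers for 7 of 7. Of 8 hepatocyte markers, 2 (Alb and Serpina1) were above background, and Fga, Fgb, Tat and Cyp2c11 were not above it in any channel. The summed hepatocyte signal, on the linear normalized scale, was 1770 to 1800 in FeD beside 1790 for FeA on the same arrays, and 1920 to 1960 in FeO beside 1610 to 1750. Of the 2 hepatocyte genes above background, Alb had a mean log2 ratio of 0.62 in FeO. Serpina1 had one of 0.03, with arrays in opposite directions (-0.23 and 0.28). The islet sum, to which the insulin genes Ins1 and Ins2 gave most, was 157000 to 171000 in FeD beside 196000 to 229000, and 122000 to 163000 in FeO beside 244000 to 249000. The islet genes did not go one way. Of their 8 probes 3 were lower than FeA on both FeD arrays, 1 was higher and 4 were opposite (median -0.17). In FeO 7 were lower and 1, the glucagon gene Gcg, was higher at a mean of 1.14. Of all passing probes, 46.4% in FeD and 51.9% in FeO had the same sign on both arrays, in either direction. Of 7 acinar probes in FeD 2 were higher on both arrays and 5 were opposite (median -0.04). Of 5 usable in FeO 4 were lower and 1 was higher (median -0.30). Of 6 passing macrophage probes 5 were higher on both FeD arrays and 1 was opposite (median 0.28). In FeO 3 macrophage probes were higher, 1 was lower and 2 were opposite (median 0.17). The part of these cell types in the Hamp ratio was not tested. Fewer cells of a type and less RNA per cell cannot be told apart in such pools.

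**Figure D2:**
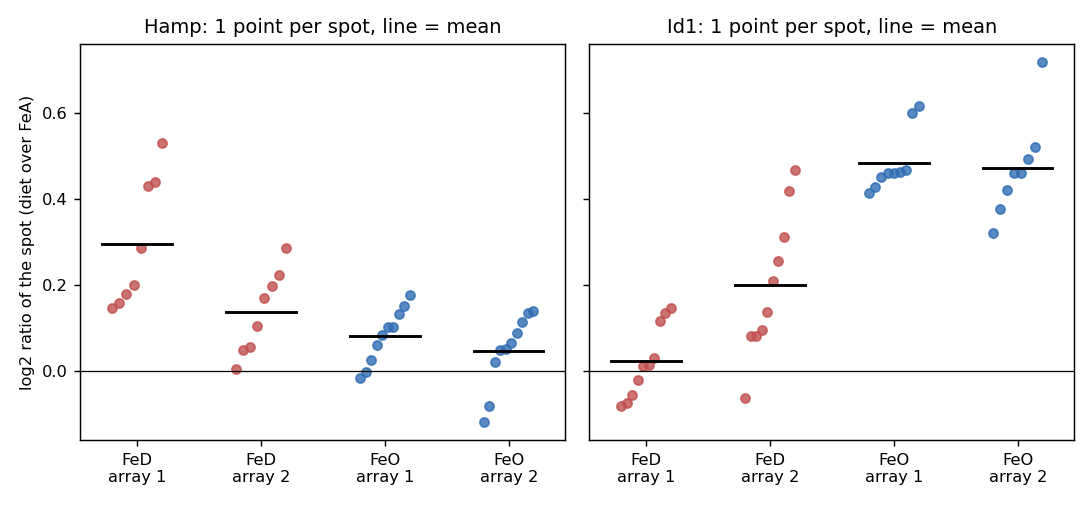
Log2 ratio of each usable spot (y axis) for Hamp and Id1 on each of the 4 arrays (x axis). Points are spots and lines their mean. The Id1 spots of both FeO arrays lie between 0.32 and 0.72, all above 0, while the Hamp spots of the FeO arrays lie between -0.12 and 0.18.

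Bmp6, the iron-regulated BMP ligand, was nearly level. Its log2 ratio in FeD was -0.03 on array 1 and -0.15 on array 2, a mean of -0.09 ± 0.09. In FeO it was -0.04 on both arrays. Bmp6 was above background in every channel, so its small ratios are not those of a signal at the floor.

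The co-receptor genes could be read less firmly. Hfe2, which encodes hemojuvelin, was well above background on both arrays in FeD and in FeO, but on 1 of the 2 arrays for FeA in each comparison. Its log2 ratios were -0.02 and 0.25 in FeD (mean 0.11 ± 0.19) and -0.05 and 0.08 in FeO (mean 0.02 ± 0.09). The arrays pointed in opposite directions both times. Neo1 encodes neogenin, a receptor that binds hemojuvelin. Its brighter probe gave 0.19 and -0.21 in FeD and 0.20 and -0.07 in FeO, again opposite, with means of -0.01 ± 0.28 and 0.06 ± 0.19. The other Neo1 probe was above background in no channel on the FeD arrays and in FeO on 1 array. It read 0.02 and -0.44 in FeD, and 0.17 and 0.18 in FeO, so the 2 Neo1 probes did not show the same pattern.

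Of the genes that report transferrin saturation, Hfe was measured by 1 bright and 1 dim probe. The bright probe read 0.01 and -0.14 in FeD, a mean of -0.07 ± 0.11. In FeO it read 0.05 and 0.07, a mean of 0.06 ± 0.01. The dim probe, above background in no channel, gave -0.07 and -0.03 in FeD and 0.03 and 0.04 in FeO. Tfr2, the liver and erythroid transferrin receptor, never stood well above background, in any pool or on any array. Its log2 ratio was -0.10 and 0.06 on the FeD arrays, and -0.16 and 0.05 on the FeO arrays, which compares signals at the floor.

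The inhibitory SMADs, which are BMP targets that feed back on the pathway, gave values on both sides of FeA. Smad7 read 0.17 and 0.34 in FeD, a mean of 0.25 ± 0.12 or 19.2% above FeA, the highest FeD ratio among the 9 genes. In FeO it read -0.19 and -0.02, a mean of -0.10 ± 0.12. Smad7 was thus above FeA on both FeD arrays and below it on both FeO arrays. Smad6 stood above FeA on all 4 arrays, at 0.09 and 0.22 in FeD and at 0.19 and 0.13 in FeO. Its mean was 0.16 ± 0.09 in FeD and 0.16 ± 0.05 in FeO, 11.6% above FeA in each.

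Tmprss6, the protease that lowers hepcidin transcription, was above FeA on both FeD arrays, at 0.20 and 0.10 (mean 0.15 ± 0.07). On the FeO arrays it read 0.07 and -0.17 (mean -0.05 ± 0.17), in opposite directions. The level of its probe differed between the 2 pairs of arrays far more than that of the other genes, although the FeA pool was the same. The normalized FeA level was 6.93 and 7.16 (log2) on the FeD arrays and 9.45 and 9.68 on the FeO arrays, which is 2.52 or 5.73-fold higher on the FeO arrays. The diet channel moved with it, from 7.13 and 7.26 in FeD to 9.52 and 9.51 in FeO. Of 15495 probes above background in every channel, 24 (0.155%) had an FeA level that shifted by 2 or more, and Tmprss6 ranked 6 among those higher on the FeO arrays. Hey1, another BMP target, was among the 24, with a shift of 2.61. The FeA levels of the other 9 genes shifted by -0.47 (the bright Hfe probe) to 0.15. The 5th to 95th percentile of the shift over the 15495 probes was -0.37 to 0.32, so the bright Hfe probe lay below it. Signals were therefore set against FeA on the same arrays only. Whether the cause of the shift also affected the Tmprss6 ratios was not tested.

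**Figure D3:**
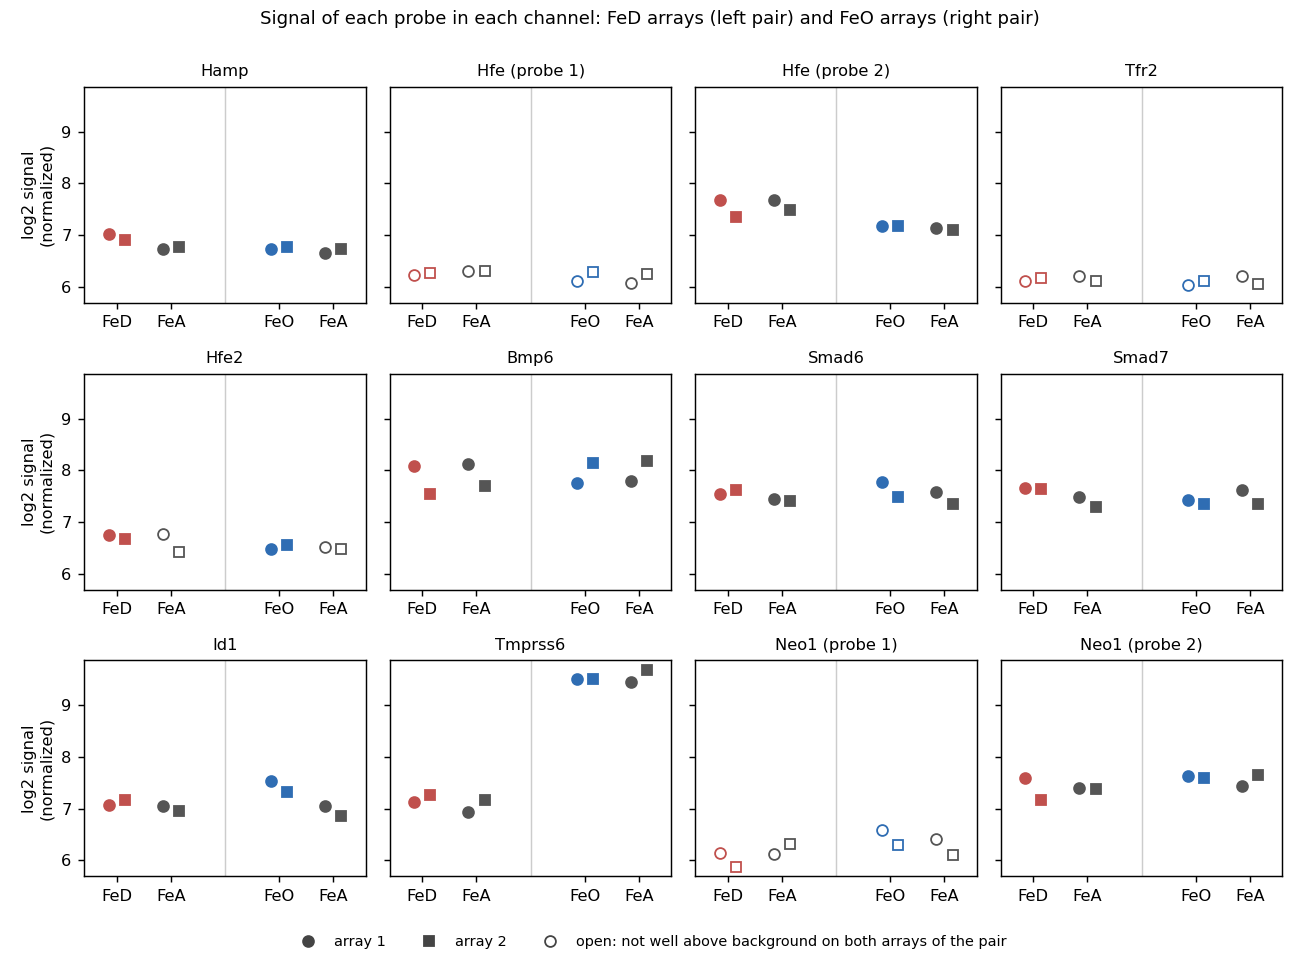
Normalized log2 signal (y axis) of each probe in every channel, with FeD and FeA of the FeD arrays on the left of each panel and FeO and FeA of the FeO arrays on the right. Open marks are pools that were not well above background on both arrays of the pair. In the Tmprss6 panel both channels lie near 7 on the FeD arrays and above 9 on the FeO arrays.

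Id1, an inhibitor of DNA binding and a classical BMP target, had the highest ratio of the set. In FeO its log2 ratio was 0.48 on array 1 and 0.47 on array 2, a mean of 0.48 ± 0.01 or 39.3% above FeA. In FeD it was 0.02 and 0.20, a mean of 0.11 ± 0.13. The FeO arrays did not overlap the FeD arrays. Each array held 10 Id1 spots: the usable 9 on FeO array 1 ran from 0.42 to 0.62 and the usable 8 on FeO array 2 from 0.32 to 0.72, all above FeA. On the FeD arrays they ran from -0.08 to 0.15 and from -0.06 to 0.47. Among all probes the FeO ratio of Id1 lay at the 96.0th percentile. It became 0.75 with no offset and 0.90 from the processed signals.

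Id1 is strongly expressed in endothelial cells, and most endothelial marker probes stood higher in both diets, 6 of 7 on both arrays in FeD and 7 of 7 in FeO. The same sign on both arrays, in either direction, was seen in 46.4% of all passing probes in FeD and 51.9% in FeO. Of 6 such genes 5 were above background in all pools, Tek in none. Their summed signal was 3420 to 3870 in FeD beside 2990 to 3030 for FeA on the same arrays, and 3420 to 3430 in FeO beside 2370 to 2520. The median log2 ratio of their probes was 0.31 in FeD and 0.39 in FeO, from 0.04 (Emcn) to 0.64 (a Vwf probe) in FeD and from 0.19 (Pecam1) to 0.76 (another Vwf probe) in FeO. The summed adipocyte signal was 6170 to 7020 in FeD beside 6590 to 8980, and 30900 to 32100 in FeO beside 8660 to 9450. In FeO this sum rested on Cfd and Adipoq, at mean log2 ratios of 2.30 and 2.07, while the median of the 6 adipocyte probes was 0.33 and Lep read 0.10. The part of either cell type in the Id1 ratio was not tested.

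The methods' test for probes, run on the 4 channel values of a comparison, and limma, run on its 2 arrays, measure technical error between pools and not the diets. At an unadjusted p of 0.05 the methods' t-test passed 0 of the 9 genes in FeD, where 6.17% of all probes passed. In FeO it passed 1 of 9 genes, Hfe by its bright probe, where 7.55% of all probes passed. Limma at the same unadjusted level passed 0 of the 9 genes in FeD and 1, Id1, in FeO. Of the 17526 and 18365 probes that passed the filter, it passed 1067 in FeD and 1619 in FeO. After Benjamini-Hochberg adjustment over all probes limma passed 0.588% of probes in FeD and 0.824% in FeO, none of them of these genes, and the adjusted p of Id1 was 0.33.

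Because each diet was read against the same FeA pool, FeO can be set against FeD indirectly as the difference of the 2 ratios. For these differences ± is the technical standard error of the difference of the 2 means, which is not on the scale of the SD used above. Id1 was 0.37 ± 0.09 higher in FeO than in FeD, at the 95.3th percentile of 16951 probes. Smad7 was lower in FeO, by -0.36 ± 0.12, at the 4.75th percentile. These 2 BMP targets therefore stood at opposite ends of the distribution, whose 5th and 95th percentiles were -0.35 and 0.36. Hamp was lower in FeO than in FeD by -0.15 ± 0.08 and Tmprss6 by -0.20 ± 0.13. The Tmprss6 difference spans the shift in level given above, whose effect on it was not tested. Bmp6 differed by 0.05, Smad6 by 0.00 and the bright Hfe probe by 0.13. The Hfe difference also spans a shift in FeA level, whose effect was not tested. The ratios of the 2 FeO arrays did not overlap those of the 2 FeD arrays for 5 of the 9 probes that passed in both comparisons, and for 29.1% of the 16951 such probes on the array.

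In order of the mean ratios, hepcidin ran FeA, FeO, FeD from low to high. Its step of 0.06 from FeA to FeO was smaller than the median array difference of all probes, 0.23. Id1 ran FeA, FeD, FeO, and FeA and FeD did not differ beyond the spread of the arrays (0.11 ± 0.13). Smad7 and Tmprss6 ran FeO, FeA, FeD, and for both genes FeO and FeA did not differ beyond that spread (-0.10 ± 0.12 and -0.05 ± 0.17). For Smad6, FeD and FeO stood equally far above FeA. Bmp6 ran FeD, FeO, FeA, with array values that overlapped between FeD and FeO. Hfe2 and the bright Neo1 probe had array spreads above their means and give no order.

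The genes whose 4 array ratios were most like those of Hamp were Dnah10, Car9 and Vstm4, with root mean square differences of 0.024, 0.027 and 0.029 over the 4 arrays. Such closeness was common, since 261 of 12115 probes lay within 0.1 of Hamp. For Id1 the nearest were Pcolce (0.018), Cry2 (0.044) and Cpne9 (0.058), and 30 probes lay within 0.1. These are likenesses over 2 comparisons that share the FeA pool.

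The rest of the pathway was taken from 5 lists with 54 genes, of which 53 were on the array and 40 passed the filter in each comparison. None reached a log2 ratio of 2 in either diet with the offset used here, but Creb3l3 did under other background settings, with -2.42 in FeD at an offset of 0, and with -4.49 in FeD and -2.60 in FeO from the processed signals. Creb3l3, a liver and intestinal transcription factor that can raise hepcidin, was also the only list gene at 1 or more in size. It was lower in both diets, and it is a gene that the study itself had listed from these samples. The median log2 ratio of all passing list probes was 0.04 in FeD and -0.02 in FeO.

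Creb3l3 read -1.32 and -1.09 in FeD, a mean of -1.20. FeD was not above background on either array, so FeD is given as at least 2.20-fold lower than FeA. In FeO it read -0.92 and -1.14, a mean of -1.03, and FeO was above background on 1 array. Intestinal epithelial markers moved with it. Their summed signal was 1230 to 1310 in FeD beside 3320 to 3450 for FeA on the same arrays, and 1040 to 1050 in FeO beside 3390 to 3420, and 5 of 6 genes were lower by a log2 ratio of 1 or more in each diet. Over all passing probes this size was reached, in either direction, by 0.365% in FeD and 1.11% in FeO. All 6 intestinal genes were above background in FeA on all arrays and 3 were in each of the other pools. Fabp2 was the lowest, at a mean of -2.78 in FeD and -2.69 in FeO, and was not above background in either diet pool. The paper reports that qRT-PCR could not detect Fabp2 in pancreas and treats its array decrease as a discrepancy. The part of the intestinal markers in the Creb3l3 ratio was not tested.

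Among BMP ligands, receptors and SMADs, 11 of 18 genes passed. Bmp7, another ligand, was the lowest in both diets, at -0.59 and -0.85 in FeD (mean -0.72) and at -0.73 and -0.65 in FeO (mean -0.69). Acvrl1, the endothelial type I receptor, was the highest, at 0.12 and 0.48 in FeD (mean 0.30) and 0.24 and 0.83 in FeO (mean 0.54). Most endothelial marker probes were higher in the same pools, as given with Id1, and their part in the Acvrl1 ratio was not tested. Bmp4, named after its value was seen because it was the other gene of this list above 0.5, read 0.49 and 0.53 in FeO.

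Among antagonists and modulators, where 8 genes passed, the bright probe of Grem1, which binds and blocks BMPs, read 0.60 and 0.16 in FeD and -0.35 and -0.64 in FeO. A dimmer Grem1 probe read -0.05 on both FeO arrays, so the probes differed. Rgma, a co-receptor related to hemojuvelin, was the lowest in FeD (0.17 and -0.48, opposite) and the highest in FeO (0.83 and 0.50, mean 0.67), while its dimmer probe read -0.06 and 0.32 in FeO.

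Among the other BMP targets, where 5 of 6 genes passed, no mean was above 0.24. Id2 was lower in both diets, at -0.37 and -0.38 in FeD and at -0.36 and -0.34 in FeO. Id3 was not above background. Atoh8 had the highest mean of this list in FeD, 0.11, and Bambi, a decoy receptor, in FeO, 0.24.

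Of the inflammatory, erythroid and hepatic regulators 12 of 13 passed, and Il6 was not above background. Gdf15, a stress-induced cytokine, was the highest in both diets, with means of 0.28 in FeD and 0.53 in FeO.

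The last list holds transferrin, the HFE partners and the hepcidin target, and all 4 genes passed. Slc40a1, which encodes ferroportin, had 2 probes that were lower on every array, with means of -0.41 and -0.27 in FeD and -0.29 and -0.31 in FeO. Tfrc, the transferrin receptor that HFE binds, stood on opposite sides: the bright probe read 0.31 and 0.45 in FeD and -0.52 and -0.64 in FeO. B2m, the light chain that HFE needs to reach the cell surface, was highest in FeD (mean 0.44). Tf was highest in FeO, with 0.88 and 0.11 on the 2 arrays (mean 0.50).

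**Figure D4:**
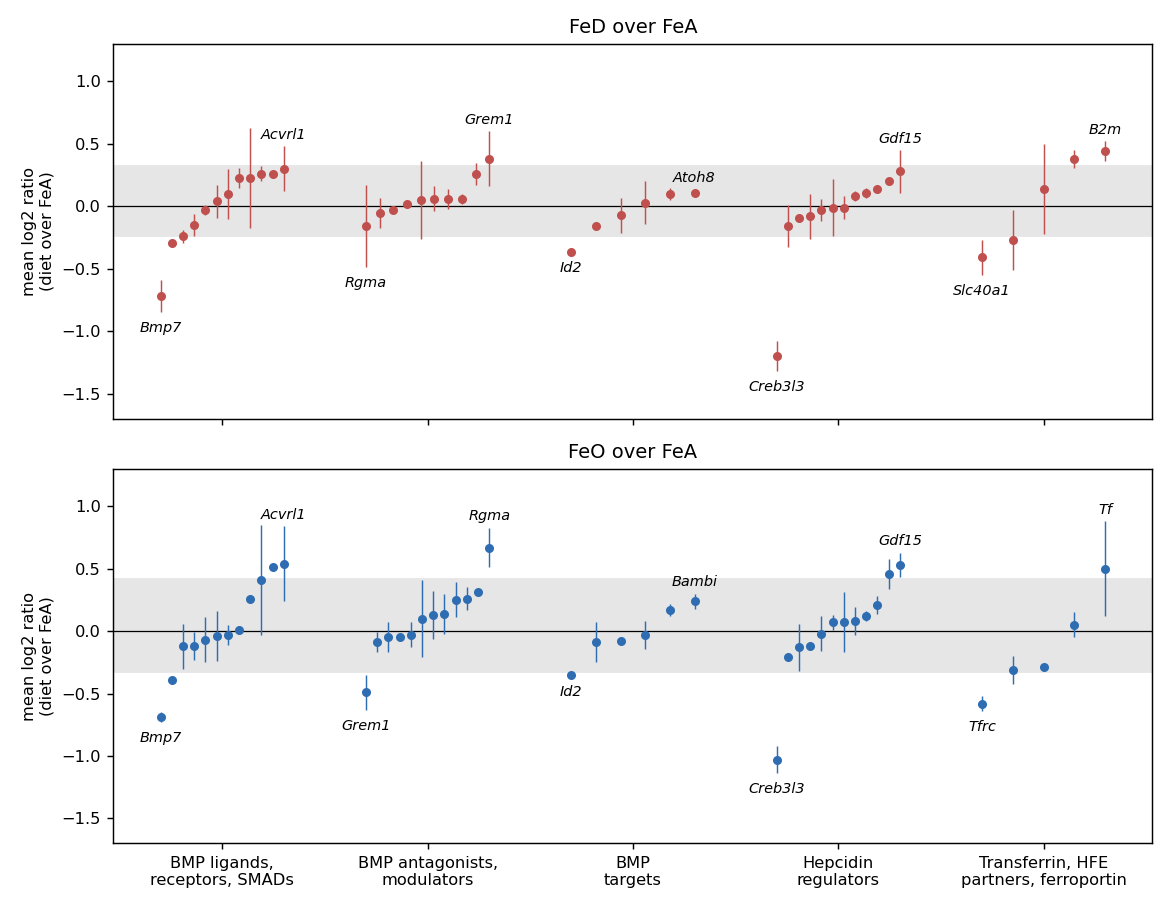
Mean log2 ratio of the diet over FeA (y axis) for the passing probes of the 5 pathway lists (x axis), FeD above and FeO below. Bars reach the values of the 2 arrays, the shaded band is the 5th to 95th percentile of all probes, and the lowest and highest gene of each list are named. Creb3l3 is the lowest point in both panels, at -1.20 and -1.03.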

How the data were processed

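Pancreas RNA pools of rats on 3 diets were compared on two-colour arrays. The intensity values were deposited by the authors as Feature Extraction 10.1.1.1 output: median spot and local background signals, and processed signals that the software background-corrected and dye-normalized. The file headers name build rn4. The deposited comparison tables supplied gene symbols only; the fold changes, p-values and q-values in them are the authors' own comparisons and were not used. Value columns belonging to no sample numbered 0.

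In R 4.3.3 with limma 3.58.1, background was corrected by normexp (offset 50) and loess was applied within each array. Control probes and outlier spots (722 to 938 per array) were left out, spots of a probe were averaged, and swapped arrays were turned. The filter was passed by 17526 probes in FeD and 18365 in FeO, of which 13 and 50 were dropped for outlier spots. Channel levels were set with Aquantile normalization. Per channel, the median spot signal was 115 to 222.5 over a background of 50 to 87, and 61.9% to 71.5% of 42877 gene spots were well above background. The number of arrays limits the precision. The methods' t-test and limma were run as alternatives on technical error.

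Names came from the deposited tables for 75.6% of probes and from the array file for 24.4%. Members and lists were chosen with earlier results of these data known. Named were all members; the highest and lowest gene of each pathway list and any at a log2 ratio of 1; and the 3 genes nearest to Hamp and to Id1. Promoters came from the RefSeq table (GRCr8), and none of its coordinates were joined to the array. The steps were tested on simulated data. There a true log2 ratio of 3 in size met the cutoff of 2 for 76.0% of changed probes in FeD and 66.0% in FeO. For a true size of 2.5 these shares were 52.0% and 42.0%. Measured ratios were smaller than the true ones. Their median share of the true ratio was 0.81 to 0.88 in FeD and 0.78 to 0.82 in FeO, depending on the true size. Figures and names used Python 3.11.15, pandas 2.3.3, numpy 2.4.6 and matplotlib 3.10.9.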

Additional observations from a re-analysis of the deposited data

Results flagged for a closer look

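Smad7 drew attention because both FeD arrays lay above FeA and both FeO arrays below it, with a difference of -0.36 (FeO minus FeD, log2). The dim Hfe probe, not above background in any channel, was below FeA on both FeD arrays and above it on both FeO arrays, with a difference of 0.09. Among the pathway genes, the bright Grem1 probe was above FeA on both FeD arrays and below it on both FeO arrays, with a difference of -0.87, and the bright Tfrc probe likewise, with a difference of -0.96. None of these differences was tested, since each diet was 1 pool.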

How the results depend on the processing

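The count of hepcidin and BMP iron-sensing genes past the size criterion was 0 in each diet under every alternative run: no background subtraction, an offset of 0, processed signals, median centring, Aquantile normalization, either other filter, the brightest probe, the lower size criteria, and each array left out. The pathway lists gave 0 genes in the main setting of each diet. In FeD they gave 1 with an offset of 0 (Creb3l3), 1 from processed signals (Creb3l3), 1 at a log2 ratio of 1 and 2 at 0.5. In FeO they gave 1 from processed signals (Creb3l3), 1 at a log2 ratio of 1 and 7 at 0.5 (4 higher and 3 lower). The counts at 1 and 0.5 are of 40 passing genes. Over all probes these criteria were met by 0.365% and 2.74% in FeD and by 1.11% and 5.41% in FeO. The cause was not tested, except that the lower criteria admit more genes by construction. The 12 passing ratios with the same sign on both arrays kept their sign in all 5 processing settings. Of these settings, Aquantile normalization could not change a sign, since it leaves the ratios unchanged. Of the 18 passing ratios 2 changed sign in some setting, Hfe2 in FeO (-0.04 to 0.11) and Neo1 in FeD (-0.09 to 0.03). Sizes were less stable: Id1 in FeO ranged from 0.43 to 0.90, Hamp in FeD from 0.20 to 0.58, Smad7 from 0.22 to 0.47 in FeD and from -0.33 to -0.07 in FeO, and Hfe2 in FeD reached 0.80. Signals near background limit Tfr2 and the dim Hfe and Neo1 probes. The ratios and limma paired the diet and FeA channels of each array, while the methods' t-test did not. No comparison across rats was possible because each diet was 1 pool.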
